A study of Lithobates pipiens with 72 samples.

Results

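Chaperones and heat shock proteins were followed in leopard frog (Rana pipiens) tadpoles after 96 h in water holding a munition compound. A transcript was taken as a member where its deposited protein name held any of 8 terms: heat shock, hsp, DnaJ, chaperonin, T-complex protein 1, protein disulfide-isomerase, calreticulin or calnexin. That chose 52 of 19128 transcripts by name alone, without the use of any measured value. They comprised 6 of the HSP70 family, 6 of HSP90 and its co-chaperones, 4 small heat shock proteins, 3 of the mitochondrial chaperonin, 5 subunits of the cytosolic chaperonin CCT, 22 DNAJ co-chaperones, 3 lectin chaperones or disulfide isomerases and 2 heat shock factors. The last, TCP11L1, is no chaperone by name and was matched only through the letters of T-complex protein 1. No row named calnexin was among them.

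Tadpoles came from eggs of a commercial supplier and had an age of 7 to 10 d when exposure began. TNT (trinitrotoluene, a nitroaromatic explosive) was given at 3 doses (1.5 mg/L, 2.3 mg/L and 3.4 mg/L), and was coated from an acetone carrier that was evaporated. NQ (nitroguanidine) was given at 30, 150, 750 and 3750 mg/L. MeNQ (methylnitroguanidine, NQ with 1 added methyl group) was given at 34, 170, 851 and 4225 mg/L. These doses match those of NQ at 0.3, 1.4, 7.2 and 36 mmol/L. IMX-101, an insensitive munition that mixes several energetic compounds, NQ among them, was given at 10, 20 and 40 mg/L after its pH had been set. NQ, MeNQ and IMX-101 were dissolved without a carrier solvent. Each of the 4 exposures had its own control in the same dechlorinated tap water, which makes 18 groups of 4 libraries, lettered A to D. A library was a pool of whole-body RNA from 5 tadpoles, and the 4 libraries of a group came from separate beakers. Whole tadpoles mix all tissues, so that fewer cells of a type and less RNA per cell cannot be told apart.

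Chaperones bind unfolded or newly made proteins and keep them from aggregating. HSP70 and HSP90 work through cycles of ATP use that are steered by co-chaperones of the DNAJ and other families, CCT encloses actin, tubulin and other clients in a ring-shaped chamber, and small heat shock proteins hold unfolded protein until HSP70 takes it up. When damaged protein builds up, heat shock factors raise the transcription of inducible members, above all HSP70, while constitutive members such as Hsp90beta and the CCT subunits serve protein synthesis in unstressed cells.

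The 72 libraries held 1.67 to 21.7 M counts, with a median of 10.8 M. The members took between 0.784% and 1.26% of the counts of a library. TNT control A was the shallowest library, and it and TNT 2.3 mg/L D came from 1 sequencing run in place of 2. The libraries of 20 and 40 mg/L IMX-101 came from another set of sequencing runs than those of 10 mg/L and the control. Dose and run set cannot be told apart there, apart from the comparisons of 40 with 20 mg/L and of 10 mg/L with the control. One run of NQ control A is named as NQ 3750 mg/L A in 1 of 3 header lines, and 2 further run names swap the sample numbers of libraries A and C of NQ 3750 mg/L. The sample titles were followed. Values are levels in CPM, the counts of a transcript relative to the scaled library total. They were scaled within each exposure and are not to be set against each other across exposures, nor between genes, whose lengths were not used.

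Of the 52 members, 32 had enough counts to be tested in all 4 exposures, 5 in some exposures and 15 in none. The 5 tested in some were DNAJB14, DNAJC14-like, DNAJC4, HSP90AB1 and Hspd1. Among the 15 untested, 6 had no count in any library, which allows a level of up to 0.00379 CPM over all 72 libraries (3 of 792.1 M counts, for counting error only). They were HSP10, calreticulin-like, DNAJB5, DNAJC27-B, a partial HSP70 and HSP30C-like. BiP, the HSP70 of the endoplasmic reticulum, had 1 count in all, DNAJC18-like 0.2, DNAJA1 18.3, DNAJC3 29.9 and HSF5-like 53.9. DNAJC28, HSP90AA1.2 and DNAJC27-A had 163.2, 171.7 and 183.8 counts in all, and calreticulin had 763.1, all of them in 5 of the 16 TNT libraries. Near-identical rows may have split each other's reads, which touches the 4 rows of HSP90 itself, both Hspd1 rows, the 3 DNAJC27 rows and both calreticulin rows, and their separate levels are uncertain. All these low values are of single deposited rows. Whether the main transcript of such a gene is missing from the rows or lies under another name was not checked. The values therefore do not bound the level of the gene.

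Across the 14 comparisons of a dose with its control, 11 members changed at least once and 26 tested members did not pass in any. The share of all transcripts that passed at least once was not counted, so 11 cannot be set against it. At 3.4 mg/L TNT alone, 1516 of 12648 transcripts tested passed. Changes are log2 fold changes with their standard error, from edgeR's quasi-likelihood test, and a member was called at an adjusted p under 0.05 after Benjamini-Hochberg adjustment over all transcripts tested. The p-values measure the spread between beakers. The hsp70 transcript rose in 5 comparisons in TNT and IMX-101. Hsp90beta also rose in both, while CCT2 and DNAJC2 rose in TNT and fell in IMX-101, and TCP1 and CCT5 rose in TNT and fell in NQ. These opposite calls come from different experiments with separate controls, and the difference between them was not tested. Several are also fragile. The TNT calls of Hsp90beta, CCT2 and DNAJC2, at 3.4 mg/L, were each lost under 7 of 9 alternatives. The NQ calls of TCP1 and CCT5 were lost in 5 and 7 of 8 fits that left out 1 library. All IMX-101 calls compare libraries of different run sets.

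**Figure D1:**
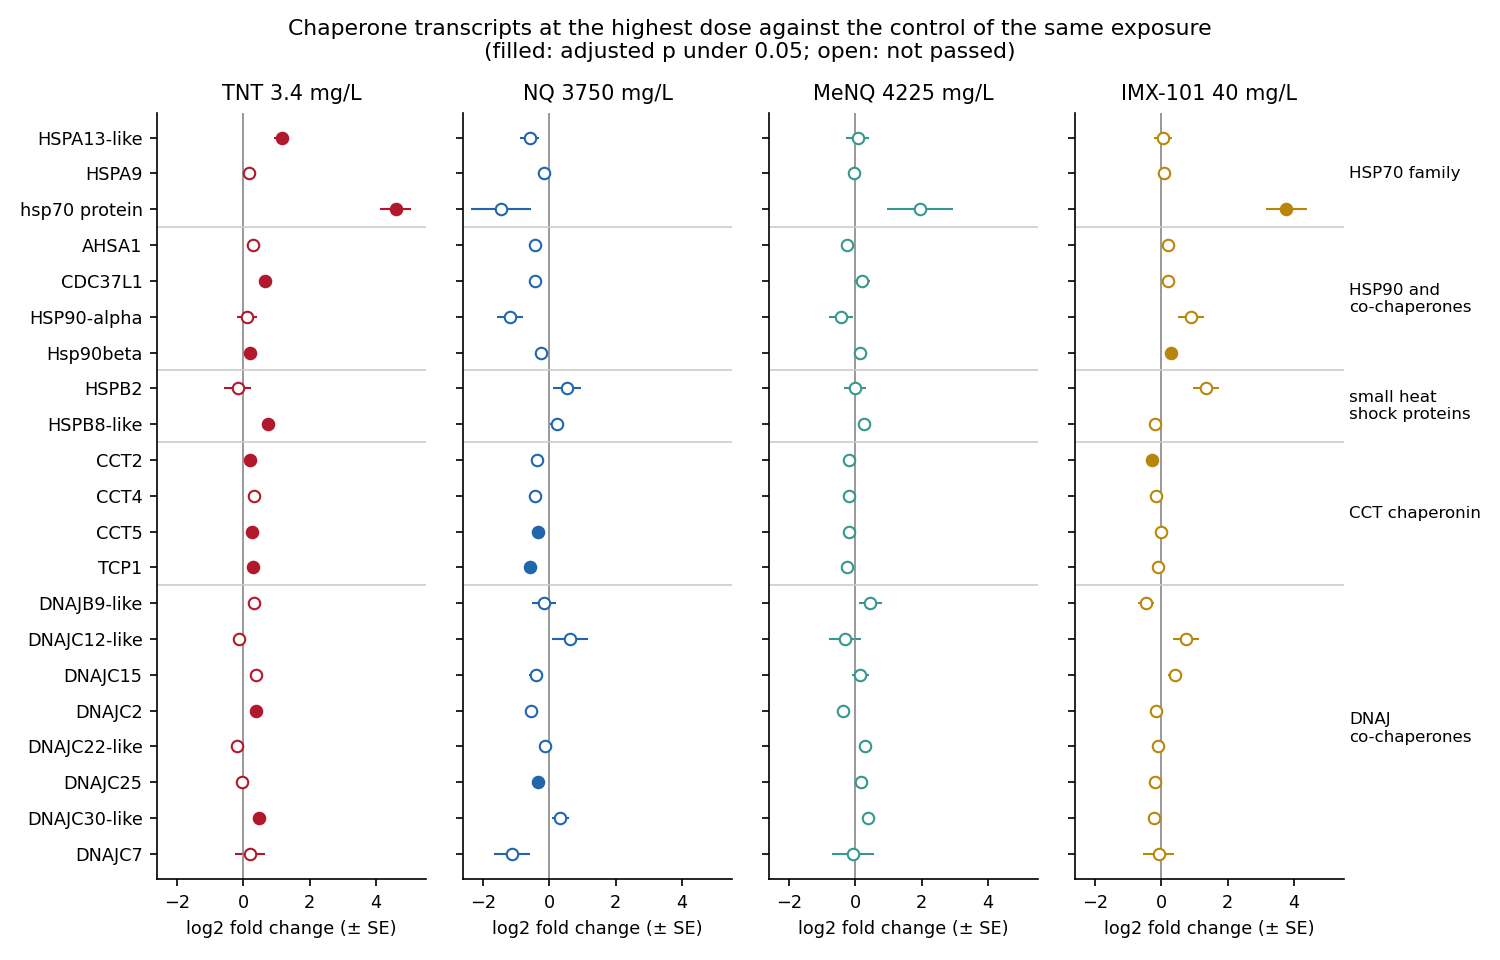
Log2 fold change (± SE) at the highest dose of each exposure against the control of that exposure, for the 21 members of 5 role classes whose standard error was under 1 in all 4 exposures. Filled points passed the adjusted p of 0.05. The filled points lie right of 0 for TNT, left of 0 for NQ and on both sides for IMX-101, and there are none for MeNQ.

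The hsp70 transcript (deposited as hsp70 protein, Rana_pipiens_Transcript_326276) had the largest log2 fold change among the members at 2.3 and 3.4 mg/L TNT, and was the only member called at 1.5 mg/L. It had 7.54, 6.92, 4.23 and 9.88 CPM in TNT control libraries A to D, 44.6, 54.7, 17.3 and 18.7 CPM at 1.5 mg/L, 91.3, 42.8, 136 and 70.4 CPM at 2.3 mg/L and 145, 150, 180 and 211 CPM at 3.4 mg/L. Each exposed library lay above every control library, and at 1.5 mg/L libraries A and B stood well above C and D. The transcript rose by 2.25 ± 0.44 at 1.5 mg/L (edgeR adjusted p = 0.0116), 3.59 ± 0.46 at 2.3 mg/L and 4.60 ± 0.47 at 3.4 mg/L, or 4.75, 12 and 24.2-fold. It took 0.0476% to 0.114% of all member counts in the controls and 1.43% to 2.01% at 3.4 mg/L. The call at 1.5 mg/L was lost with the sequencing lane as a term (2.00, adjusted p = 0.0594), with only the 8 libraries compared (2.22, adjusted p = 0.0713) or with the replicate letter as a block (2.22, adjusted p = 0.0517), while those at 2.3 and 3.4 mg/L were lost under no alternative run.

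Under IMX-101 the same transcript was raised as well, with an uneven start. The control libraries A to D had 12.1, 3.40, 4.37 and 8.10 CPM, those at 10 mg/L 23.0, 68.0, 55.9 and 5.68, those at 20 mg/L 52.1, 32.7, 39.1 and 34.1, and those at 40 mg/L 77.0, 91.2, 118 and 97.0. Library D at 10 mg/L lay within the range of the controls, and all libraries at 20 and 40 mg/L lay above it. The change was 2.44 ± 0.58 at 10 mg/L, which did not pass (adjusted p = 0.0696) and passed without library D (2.79, adjusted p = 0.00949). The transcript rose by 2.49 ± 0.59 at 20 mg/L (adjusted p = 0.0250) and 3.77 ± 0.61 at 40 mg/L (adjusted p = 0.00153). The call at 20 mg/L was lost without library B, C or D of that dose or control B, C or D (2.26 to 2.57, adjusted p up to 0.067) and with the replicate letter as a block (2.47, adjusted p = 0.0686), and that dose shares no run set with the control. Within that run set, 40 against 20 mg/L gave 1.28 ± 0.56 (adjusted p = 0.454), although the 4 libraries at 40 mg/L lay above all 4 at 20 mg/L.

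NQ and MeNQ gave no called change of hsp70, and at their highest doses single libraries set the spread. At 3750 mg/L NQ the hsp70 transcript had 2.84, 2.65, 3.96 and 1.46 CPM, against 2.84, 3.04, 2.51 and 21.7 CPM in the NQ control. The difference was -1.46 ± 0.91 (adjusted p = 0.498), with a 95% interval from -3.38 to 0.46. It was -0.02 without control D and -0.56 with the replicate letter as a block. At 4225 mg/L MeNQ the libraries had 141, 2.65, 3.90 and 5.43 CPM, against 13, 7.00, 6.41 and 13.2 CPM in the MeNQ control. Library A alone was high, and the other 3 lay below all 4 controls. The difference was 1.95 ± 0.98 with library A (adjusted p = 0.539) and -1.31 without it (adjusted p = 0.525). At 170 mg/L MeNQ the libraries had 3.00, 2.58, 2.11 and 1.78 CPM, and at 851 mg/L 5.49, 4.75, 1.75 and 2.89 CPM. All of these lay below all 4 controls. The differences were -2.05 and -1.40 and did not pass, and they stayed negative without any 1 library (-2.21 to -1.88 and -1.64 to -1.19).

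**Figure D2:**
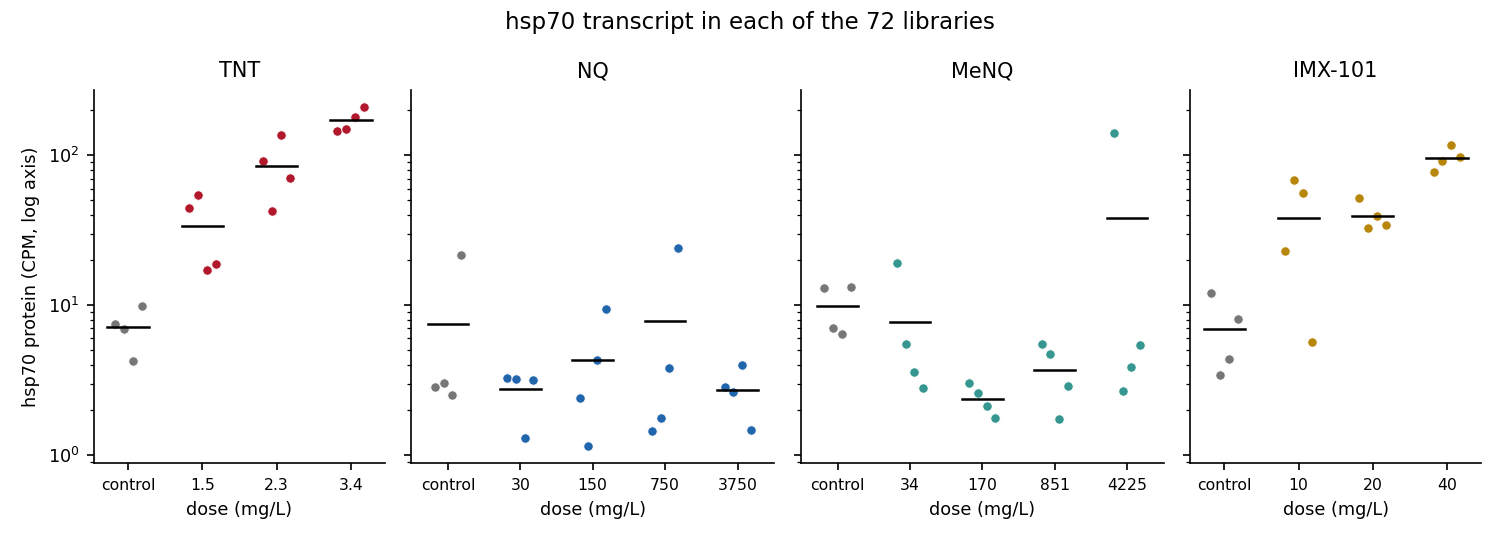
Level of the hsp70 transcript (CPM, log axis) in each of the 72 libraries by dose (mg/L), with the control of each exposure at the left. Points are libraries and bars are group means. The TNT libraries at 3.4 mg/L lie at 145 to 211 CPM, against 4.23 to 9.88 CPM in their controls, while in NQ and MeNQ most libraries lie under 10 CPM and a few stand apart, the highest of them MeNQ 4225 mg/L A at 141 CPM.

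At 3.4 mg/L TNT, 10 of 34 members tested rose and none fell, when 6.37% of all transcripts tested rose and 5.61% fell. The members' median was 0.28, against 0.06 over all transcripts tested. By role, 2 of 4 HSP70 members rose, 2 of 4 of HSP90 and its co-chaperones, 1 of 3 small heat shock proteins, 3 of 5 CCT subunits and 2 of 14 DNAJ co-chaperones, while the single heat shock factor, disulfide isomerase and mitochondrial chaperonin tested did not pass. In all 10 the exposed libraries lay above all 4 controls, which adds no support, since the calls come from these same libraries. The share of all transcripts without overlap was not counted. At 2.3 mg/L 4 members rose and none fell (3.05% and 2.34% of all transcripts), and at 1.5 mg/L only hsp70 rose and none fell (1.76% and 1.00%). A slope over the dose steps was positive in 9 members and negative in none that passed (6.11% and 5.40%). It was 1.47 ± 0.15 per step for hsp70 and 0.08 to 0.39 for the other 8.

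HSPA13-like, named for a short HSP70 relative bound to microsomes, had 11.9, 17.6, 13.4 and 14.4 CPM at 3.4 mg/L TNT, against 5.22, 7.47, 4.23 and 8.75 CPM in the control. The groups did not overlap, and the transcript rose by 1.15 ± 0.24 (edgeR adjusted p = 0.00498). At 2.3 mg/L it rose by 0.94 ± 0.24 (adjusted p = 0.0352), a call lost without library A, C or D of that dose or control A, B or C (0.76 to 1.00, adjusted p up to 0.104). That call was also lost under 5 of 9 alternatives. HSPA9, the HSP70 of mitochondria, had 230 to 247 CPM at 3.4 mg/L, against 189 to 226 CPM in the control, a difference of 0.16 ± 0.07 that did not pass (adjusted p = 0.21) although the groups did not overlap. HSPA12B, a distant relative, had 0.19 to 1.78 CPM at 3.4 mg/L, against 0.58 to 2.02 CPM in the control, and did not pass either (-0.54 ± 0.88).

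HSPB8-like was the member with the next smallest adjusted p after hsp70. HSPB8 is known in mammals to act with the co-chaperone BAG3 in steering damaged protein to autophagy. It had 77.2 to 89.9 CPM in the 4 control libraries, 94.5 to 106 CPM at 1.5 mg/L, 107 to 134 CPM at 2.3 mg/L and 111, 146, 153 and 141 CPM at 3.4 mg/L. No exposed library overlapped the control range, at any of the 3 doses. It rose by 0.59 ± 0.10 at 2.3 mg/L (adjusted p = 0.0017) and 0.74 ± 0.10 at 3.4 mg/L (adjusted p = 0.000136), and the 0.29 ± 0.10 at 1.5 mg/L did not pass (adjusted p = 0.163). HSPB2, a small heat shock protein of muscle, had 1.50 to 2.48 CPM at 3.4 mg/L TNT, against 2.02 to 2.58 CPM in the control (-0.18 ± 0.40), and the cardiovascular member cvHSP lay at 0 in 4 of these 8 libraries.

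Among HSP90 and its co-chaperones, CDC37L1, a relative of the co-chaperone that brings kinases to HSP90, had 34.0, 31.7, 30.0 and 28.4 CPM at 3.4 mg/L TNT, against 14.5, 19.2, 20.8 and 23.1 CPM in the control. It rose by 0.66 ± 0.16 (adjusted p = 0.0112), and by 0.59 ± 0.16 at 2.3 mg/L (adjusted p = 0.0415), where leaving out library A, C or D of that dose or control A, B or C ended the call (0.47 to 0.61, adjusted p up to 0.119). The call at 2.3 mg/L was also lost under 5 of 9 alternatives. Hsp90beta, the constitutive HSP90, had 6405, 6061, 6255 and 6660 CPM, against 5688, 5330, 5643 and 5327 CPM. Its rise of 0.21 ± 0.06 passed narrowly (adjusted p = 0.0420) and was lost without any 1 of the 8 libraries compared (0.16 to 0.23). HSP90-alpha, the inducible form, had 24.6 to 36.7 CPM, against 17.5 to 51.1 CPM in the control (0.11 ± 0.30), and AHSA1, which stimulates the ATPase of HSP90, had 83.7 to 106 CPM, against 66.7 to 92.1 CPM (0.27 ± 0.10, adjusted p = 0.124). Neither passed, and both overlapped the controls.

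The CCT subunits that passed at 3.4 mg/L TNT moved by small and even amounts. TCP1, the alpha subunit, had 495, 551, 538 and 515 CPM at 3.4 mg/L, against 395, 440, 420 and 457 CPM in the control, and rose by 0.29 ± 0.06 (adjusted p = 0.00301). CCT5 had 901, 944, 959 and 936 CPM, against 727, 816, 824 and 775 CPM, and rose by 0.25 ± 0.05 (adjusted p = 0.00331). In both, every exposed library lay above every control library. CCT2 had 703, 685, 757 and 667 CPM, against 608, 555, 627 and 637 CPM, and its rise of 0.21 ± 0.06 (adjusted p = 0.0313) was lost without any 1 of the 8 libraries compared (0.15 to 0.23). CCT4 differed by 0.32 ± 0.16 (adjusted p = 0.256) and CCT6A, at 0 to 6.72 CPM, by 0.17 ± 1.73. All 5 estimates at 3.4 mg/L were positive, from 0.17 to 0.32, although that of CCT6A is too uncertain to give a direction. No subunit passed at the lower doses, where estimates ran from -0.74 to 0.21 (1.5 mg/L) and from -2.88 to 0.18 (2.3 mg/L).

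**Figure D3:**
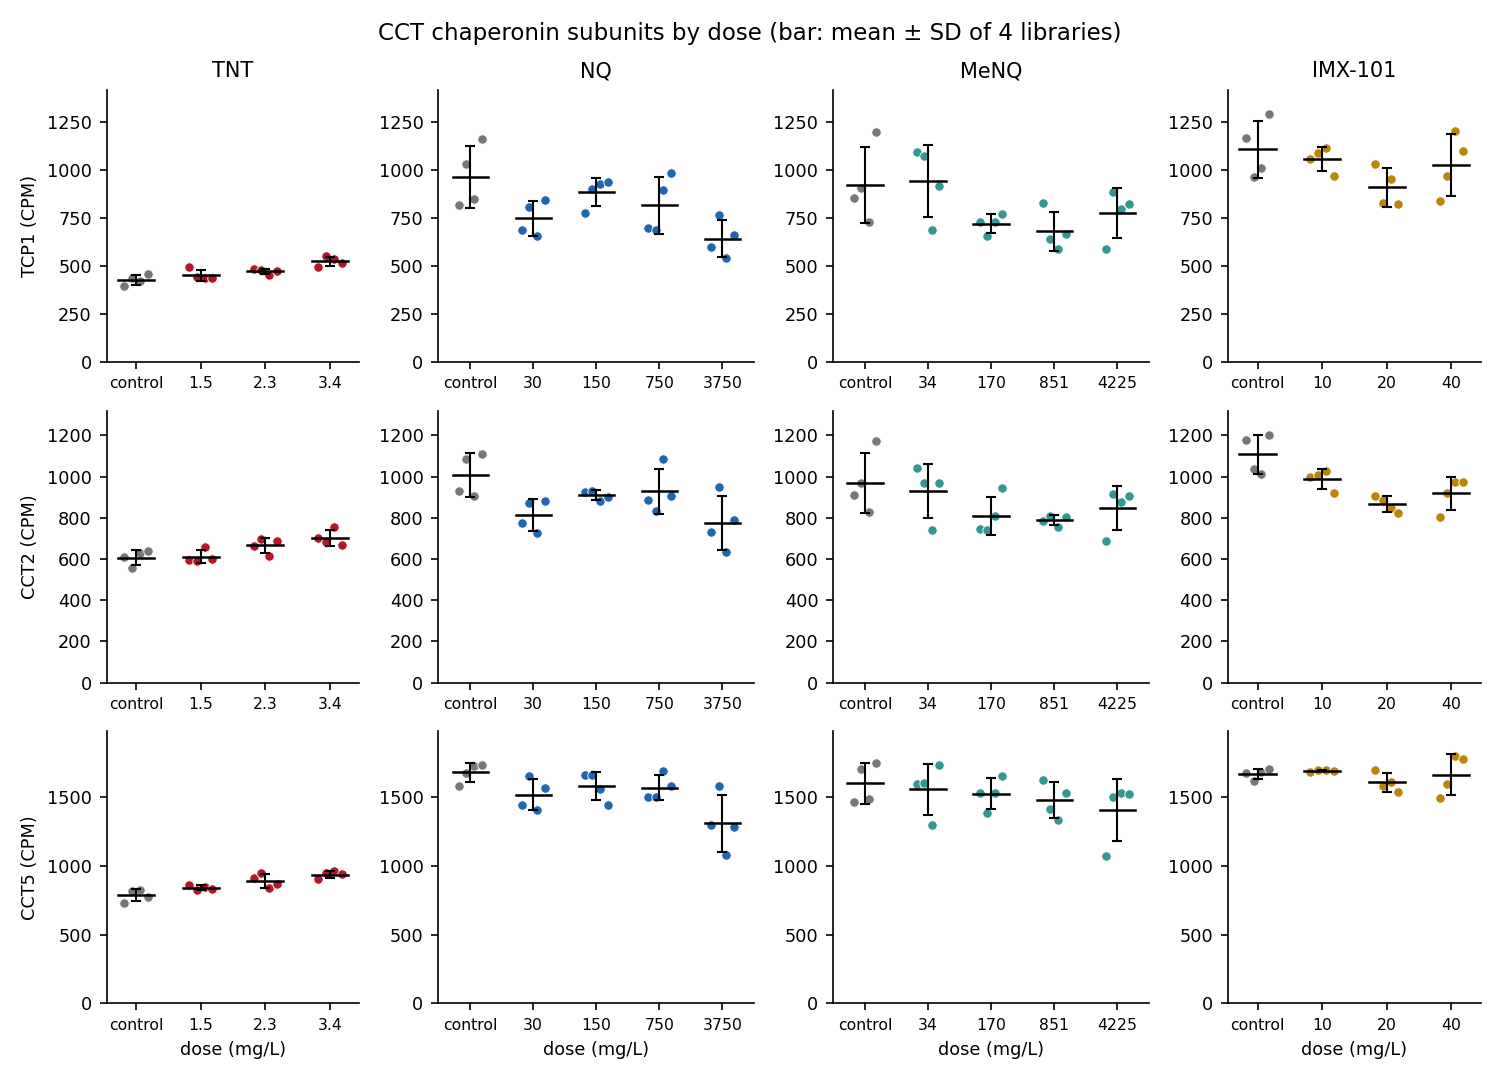
Levels (CPM) of the CCT subunits TCP1, CCT2 and CCT5 (rows) by dose (mg/L) in the 4 exposures (columns), with the control of each exposure at the left. Points are libraries, and bars show the mean ± SD of 4 libraries. TCP1 and CCT5 lie above their controls at 3.4 mg/L TNT and below them at 3750 mg/L NQ, and CCT2 lies below its controls at 20 and 40 mg/L IMX-101.

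Of the 14 DNAJ co-chaperones tested under TNT, 2 rose at 3.4 mg/L. DNAJC30-like, named for a J-domain protein of the mitochondrial inner membrane, had 22.8, 23.5, 22.4 and 23.3 CPM, against 13.3, 18.5, 16.1 and 18 CPM in the control. It rose by 0.47 ± 0.12 (adjusted p = 0.0188), and the call was lost without library B or D of that dose or control A or C (0.37 to 0.47). DNAJC2, a J-domain protein that sits on the ribosome, had 159, 151, 174 and 155 CPM, against 90.5, 113, 135 and 146 CPM. Its rise of 0.39 ± 0.12 (adjusted p = 0.0413) was lost without any 1 of 7 of the 8 libraries compared, control D being the exception, and was 0.26 without control A (adjusted p = 0.106). With the sequencing lane as a term, the calls at 3.4 mg/L of DNAJC30-like (adjusted p = 0.0669), DNAJC2 (0.112), CCT2 (0.0681) and Hsp90beta (0.0925) were also lost. DNAJC15, which serves mitochondrial protein import, came nearest of the other 12 (0.37 ± 0.13, adjusted p = 0.0879). DNAJB1-like, named for the main partner of inducible HSP70, lay at 1.60 to 4.19 CPM, against 0 to 2.90 CPM (1.39 ± 1.09, adjusted p = 0.553).

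**Figure D4:**
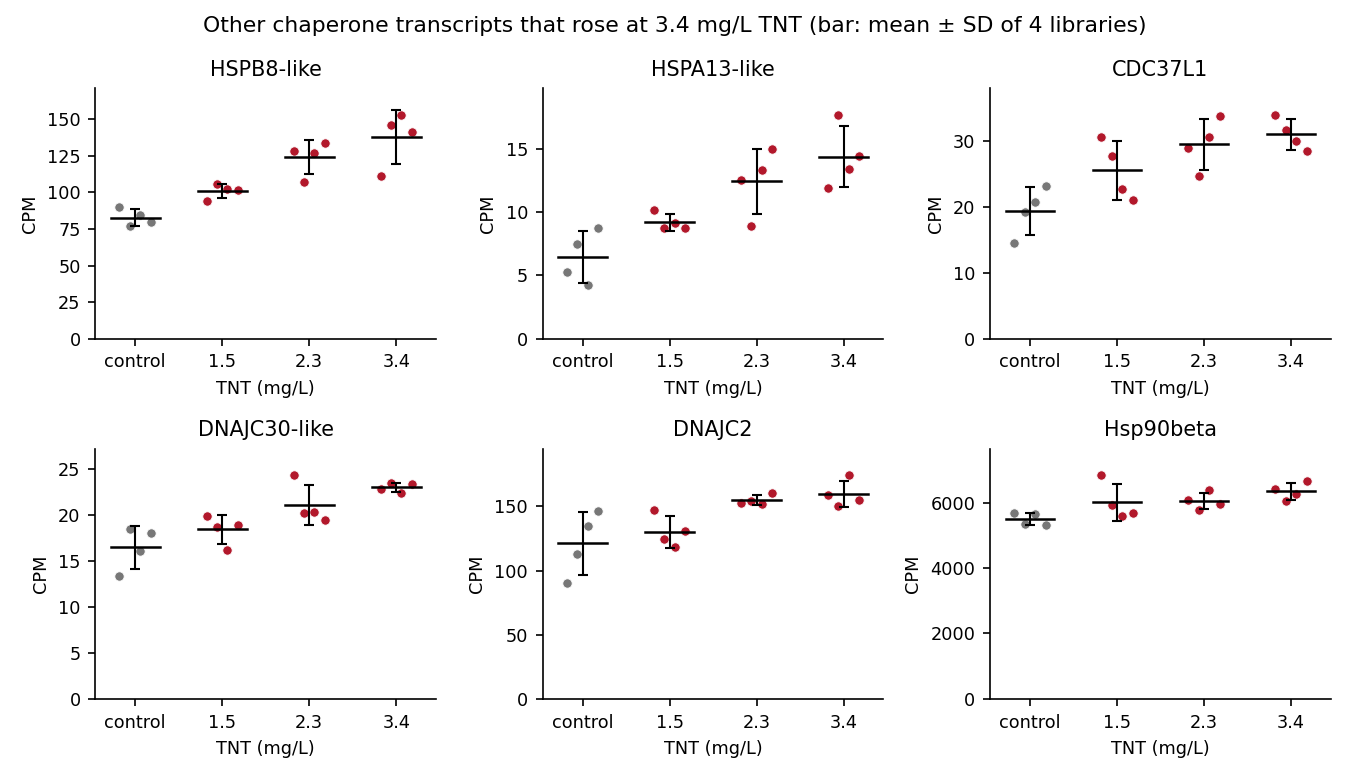
Levels (CPM) of 6 further members that rose at 3.4 mg/L TNT, by dose (mg/L) with the control at the left. Points are libraries, and bars show the mean ± SD of 4 libraries. HSPB8-like and HSPA13-like climb over the doses, and in each panel the lowest library at 3.4 mg/L lies above the highest control.

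The heat shock factor, the disulfide isomerase and the partial Hspd1 row lay low under TNT. HSF3-like, named for a heat shock factor, had 0 to 2.53 CPM at 3.4 mg/L, against 1.74 to 12.1 CPM in the control (-2.0 ± 1.19, adjusted p = 0.375). PDIA3-like, a disulfide isomerase of the endoplasmic reticulum, had 0 to 1.51 CPM, against 0 to 3.32 CPM (-1.35 ± 1.14). The partial Hspd1 row, from the mitochondrial HSP60, had 1.31, 1.61, 1.33 and 1.19 CPM, against 0, 0, 0 and 0.337 CPM. Its groups did not overlap, but with an adjusted p of 0.118 it did not pass.

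Other genes of protein folding were read from a list of 41 name patterns, which matched 35 rows outside the members. At 3.4 mg/L TNT, 3 of 26 tested rose and 1 fell, when 6.37% of all transcripts tested rose and 5.61% fell. BAG3-like, named for the partner of HSPB8, had 38.0, 66.0, 83.0 and 61.0 CPM, against 34.8, 34.5, 37.9 and 31.1 CPM in the control. It rose by 0.84 ± 0.21 (adjusted p = 0.0151), with library A level with the highest control, and the call was lost without library C or control D (0.67 and 0.77). That call was also lost under 2 of 9 alternatives. BAG1, which releases substrate from HSP70, rose by 0.31 ± 0.06 (adjusted p = 0.0041), at 91.9 to 96.2 CPM, against 72.8 to 79.5 CPM.

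The list also held the unfolded protein response of the endoplasmic reticulum. A row named for the sensor kinase EIF2AK3 (PERK) had 25.2, 22.9, 28.5 and 34.3 CPM at 3.4 mg/L TNT, against 12.8, 12, 11 and 11.7 CPM in the control, and rose by 1.23 ± 0.24 (adjusted p = 0.00323). ATF4, the transcription factor whose translation PERK favours, fell by 0.23 on the log2 scale (SE 0.04, adjusted p = 0.00249), with 880 to 966 CPM, against 1033 to 1108 CPM. A row named 78 kDa glucose-regulated protein, a second name of BiP, had at most 0.403 CPM in the TNT libraries. Whether the rows with a BiP name hold the main transcript of that gene was not checked, so its response is not known here. At 2.3 mg/L, 1 of 26 tested rows of the whole list rose and 2 fell, when 3.05% of all transcripts tested rose and 2.34% fell. The PERK row rose by 1.22, a call lost under 1 of 9 alternatives. ATF4 differed by -0.16, a call lost under 4 of 9 alternatives and in 6 of 8 fits that left out 1 library. XBP1, a factor of the same response, fell at 2.3 mg/L (-0.45, adjusted p = 0.00636), at 372 to 509 CPM, against 608 to 665 CPM. At 3.4 mg/L XBP1 had 508 to 587 CPM, below every control, and did not pass.

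Some markers of other tissues moved with TNT as well. Of all transcripts tested, 6.37% rose and 5.61% fell at 3.4 mg/L. The summed level of the 8 erythroid marker rows was 6391 to 12043 CPM at 3.4 mg/L, against 1693 to 4343 CPM in the control, and 4 of 4 tested rows rose. The 10 goblet-cell rows summed to 317 to 439 CPM, against 569 to 815 CPM, and 3 of 6 fell. The 12 pancreatic rows summed to 7612 to 13092 CPM, against 12373 to 15869 CPM, and 2 of 10 fell. The 6 liver rows summed to 2436 to 2734 CPM, against 2597 to 3648 CPM, with 1 row up and 2 down. The 19 muscle rows, 1 of them at 0 in these libraries, summed to 6270 to 7082 CPM, against 5516 to 7070 CPM, and 1 of 15 fell. Their part in the chaperone values was not tested.

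Under NQ, 3 of 35 members tested fell at 3750 mg/L and none rose, when 3.08% of all transcripts tested fell and 1.39% rose. The members' median was -0.36, against 0.02 over all transcripts. The called members were 2 of 5 CCT subunits and 1 of 13 DNAJ co-chaperones. TCP1 had 599, 768, 542 and 662 CPM, against 818, 1032, 852 and 1161 CPM in the NQ control, and fell by 0.59 on the log2 scale (SE 0.14, adjusted p = 0.0270). CCT5 had 1297, 1576, 1075 and 1283 CPM, against 1577, 1674, 1724 and 1728 CPM, and fell by 0.36 (SE 0.09, adjusted p = 0.0382). In both the groups did not overlap, although CCT5 in library B, at 1576 CPM, lay just under control A.

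The TCP1 call was lost without library A, C or D of 3750 mg/L or control B or D (-0.59 to -0.47), and the CCT5 call without 3750 mg/L A, C or D or any 1 of the 4 controls (-0.37 to -0.26, adjusted p up to 0.119). DNAJC25, a J-domain protein, had 193, 190, 199 and 186 CPM, against 216, 245, 261 and 251 CPM, and fell by 0.34 (SE 0.07, adjusted p = 0.00936). No left-out library ended that call. With only the 8 libraries compared, all 3 calls were lost, that of DNAJC25 at -0.34 (adjusted p = 0.0895), that of TCP1 at -0.58 (adjusted p = 0.102) and that of CCT5 at -0.35 (adjusted p = 0.184). The CCT5 call was also lost without a filter on low counts (-0.35, adjusted p = 0.0576).

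The other classes did not pass at 3750 mg/L NQ. All 5 tested members of HSP90 and its co-chaperones had negative estimates, from -1.40 to -0.26. AHSA1 had 95.2 to 120 CPM, against 126 to 160 CPM in the control, without overlap (-0.43 ± 0.12, adjusted p = 0.0599). Hsp90beta had 3954, 3942, 4960 and 3836 CPM, against 5225, 5291, 4955 and 4526 CPM (-0.26 ± 0.08, adjusted p = 0.0862), with library C among the controls. HSP90-alpha had 30.6 to 59.1 CPM, against 44.0 to 143 CPM (-1.19 ± 0.38, adjusted p = 0.0969). CCT2 had 634 to 950 CPM, against 905 to 1109 CPM (-0.38 ± 0.11, adjusted p = 0.0746), and DNAJC2 150 to 179 CPM, against 191 to 297 CPM (-0.56 ± 0.18, adjusted p = 0.102).

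Among the DNAJ co-chaperones DNAJC7 had 3.01 to 10.3 CPM, against 11 to 19 CPM, without overlap (-1.13 ± 0.54, adjusted p = 0.311). No member of the 4 HSP70 rows, 3 small heat shock proteins or 2 Hspd1 rows tested passed in NQ, and all 3 estimates for small heat shock proteins were positive (HSPB8-like 0.23 ± 0.20, HSPB2 0.52 ± 0.42). In the wider list 1 of 26 fell at 3750 mg/L (3.08% of all transcripts). This was URI1, a relative of the prefoldins that hand unfolded actin to CCT, with 41.7, 50.0, 35.8 and 37.6 CPM, against 76.1, 62.5, 62.4 and 58.9 CPM (-0.65 ± 0.14, adjusted p = 0.0127), a call lost without library C (-0.58, adjusted p = 0.0517). Goblet-cell rows summed to 926 to 976 CPM at this dose, against 1343 to 2968 CPM in the control, with 3 of 8 down. Liver rows summed to 7588 to 15185 CPM, against 4806 to 8065 CPM, with 1 of 6 up (1.39% of all transcripts). No tested row of the 3 erythroid, 9 pancreatic and 15 muscle rows passed. Their part was not tested.

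At the 3 lower NQ doses edgeR called no member. Of all transcripts, edgeR called 0%, 0.0154% and 0% at 30, 150 and 750 mg/L. An unadjusted p under 0.05 was reached by 8 of 35 members at 30 mg/L, against 8.14% of all transcripts tested, by 1 at 150 mg/L (7.55%) and by 7 at 750 mg/L (6.75%). The DESeq2 Wald test called no member at these doses, when it called 0.781%, 1.11% and 0.718% of all transcripts.

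The slope over the NQ dose steps passed in no member by edgeR, which called 1.23% of all transcripts. It had an unadjusted p under 0.05 in 10 of 35 members, against 12.8% of all transcripts. DESeq2 called 4 members with a negative slope and none with a positive one, when 4.81% of all transcripts had a called negative slope. At 3750 mg/L DESeq2 called 8 members, all lower, when 5.28% of all transcripts were called lower.

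MeNQ gave no member that passed in edgeR. Of all transcripts, it called 0%, 0.156%, 0.437% and 0.393% at 34, 170, 851 and 4225 mg/L. At these doses an unadjusted p under 0.05 was reached by 2, 8, 9 and 4 of 36 members, against 4.83%, 9.58%, 11.8% and 10.0% of all transcripts. DESeq2 called no member at 34, 170 or 851 mg/L, when it called 0.528%, 1.47% and 3.44% of all transcripts. At 4225 mg/L it called 2 members, both lower, when 1.55% of all transcripts were called lower.

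Neither tool called a slope over the MeNQ dose steps in a member, when edgeR called 0.0889% and DESeq2 2.07% of all transcripts. The slope had an unadjusted p under 0.05 in 5 of 36 members and in 8.20% of all transcripts. The median at 4225 mg/L was -0.05 for the members and -0.01 for all transcripts.

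The smallest adjusted p at 4225 mg/L MeNQ was that of CCT6A. It had 1.82, 3.69, 0.768 and 2.75 CPM, against 6.11, 8.30, 5.60 and 3.36 CPM in the MeNQ control (-1.38 ± 0.42, adjusted p = 0.209). All 5 CCT estimates were negative, and for TCP1, CCT2, CCT4 and CCT5 they lay between -0.25 and -0.19. DNAJC2 had 160 to 191 CPM, against 182 to 297 CPM (-0.38 ± 0.17, adjusted p = 0.44), and Hsp90beta had 4832 to 5369 CPM, against 4416 to 5192 CPM (0.14 ± 0.07, adjusted p = 0.499). DNAJC30-like had 23.0 to 35.1 CPM, against 18.4 to 30.0 CPM (0.38 ± 0.18), and DNAJC22-like 86.1 to 112 CPM, against 73.0 to 88.3 CPM (0.30 ± 0.14). DNAJC4 had 0, 5.66, 3.66 and 11.4 CPM, against 0, 0, 0 and 0.295 CPM (adjusted p = 0.437). Each of these overlapped its control. No tissue marker row passed at this dose either.

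NQ and MeNQ were compared at 4 matched molar levels, as the MeNQ response minus the NQ response, each against its own control, in 1 edgeR model of the 40 libraries. At 36 mmol/L 1 of 37 members differed, higher for MeNQ, and none was lower (0.327% and 0.299% of all transcripts). This was DNAJC25, with 237, 216, 220 and 245 CPM at 4225 mg/L MeNQ, against 175, 218, 197 and 220 CPM in the MeNQ control, beside the NQ values above. The MeNQ response exceeded the NQ response by 0.50 ± 0.11 (95% interval 0.28 to 0.72, adjusted p = 0.0192). The call was lost without MeNQ control A (0.44, adjusted p = 0.0628) or NQ control C (0.49, adjusted p = 0.0546).

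Next in order at 36 mmol/L was Hsp90beta, which had 4832, 5171, 5105 and 5369 CPM at 4225 mg/L MeNQ, against 5192, 4514, 4420 and 4416 CPM in its control. Its difference of 0.38 ± 0.10 did not pass (95% interval 0.17 to 0.59, adjusted p = 0.075). For hsp70 the difference was 3.39 ± 1.37 with an interval from 0.59 to 6.18 (adjusted p = 0.276), and MeNQ 4225 mg/L A and NQ control D stand apart within their groups. The intervals of the CCT subunits TCP1 (-0.13 to 0.76), CCT5 (-0.15 to 0.45) and CCT2 (-0.18 to 0.49), and of HSPA9 (-0.22 to 0.41), bound any difference to under 1 on the log2 scale. Each of the CCT intervals still holds a difference larger than the NQ change of that subunit given above. They therefore do not show that the responses were alike. Such an interval lay within -1 and 1 for 13 of the 37 members, and the wider intervals of the others say little.

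At the 3 lower matched levels no member differed by edgeR or DESeq2. Of all transcripts, edgeR called 0.0213%, 0.128% and 0.114% at 0.3, 1.4 and 7.2 mmol/L, and DESeq2 0.885%, 1.92% and 1.33%. An unadjusted p under 0.05 was reached by 7, 2 and 2 of 37 members, against 7.77%, 9.62% and 8.53% of all transcripts. DNAJC25 differed by 0.24 ± 0.11 at 0.3 mmol/L (95% interval 0.02 to 0.46, adjusted p = 0.613), 0.07 ± 0.11 at 1.4 mmol/L (-0.15 to 0.28, adjusted p = 0.967) and 0.32 ± 0.11 at 7.2 mmol/L (0.11 to 0.54, adjusted p = 0.333). Those of hsp70 were 1.07 ± 1.35, -1.26 ± 1.35 and -1.45 ± 1.35, with 95% intervals of -1.68 to 3.81, -4.0 to 1.48 and -4.19 to 1.30.

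**Figure D5:**
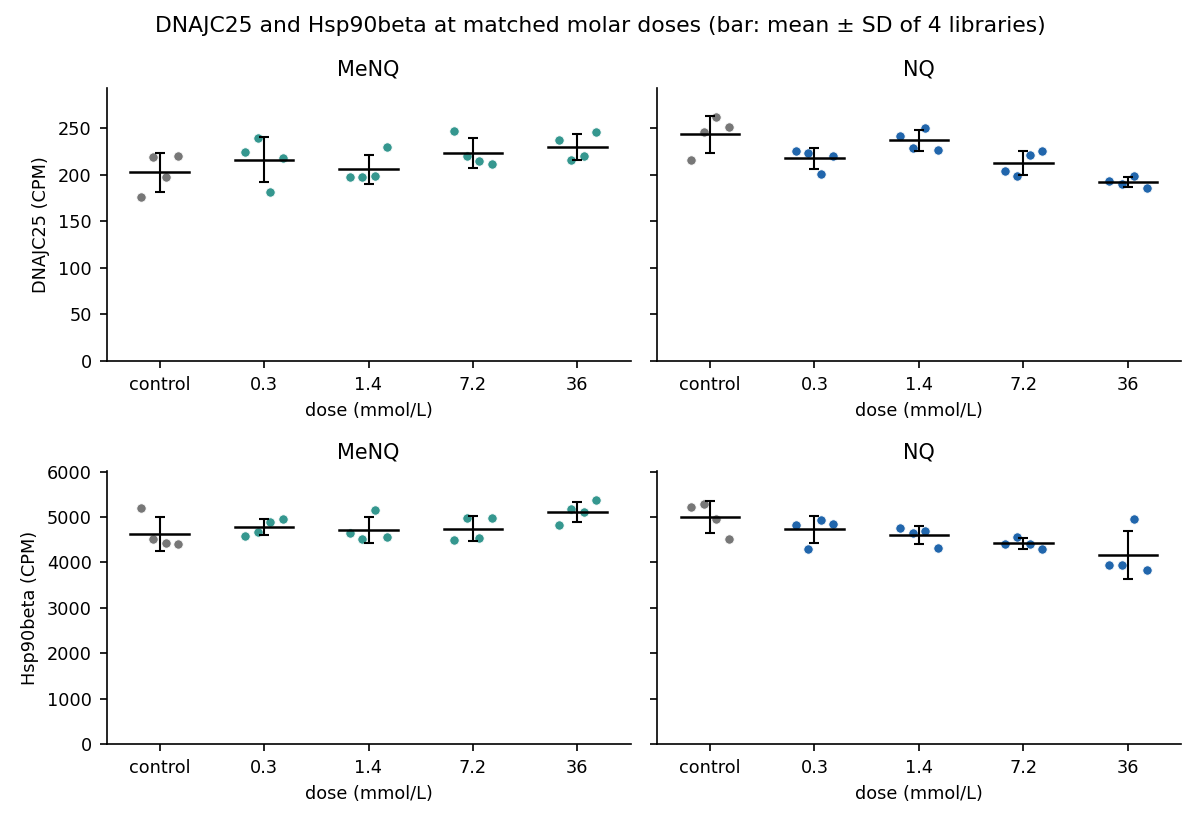
Levels (CPM) of DNAJC25 and Hsp90beta (rows) at matched molar doses (mmol/L) of MeNQ (left) and NQ (right), with the control of each exposure at the left of its panel. Points are libraries, and bars show the mean ± SD of 4 libraries. The exposures were scaled separately. At 36 mmol/L DNAJC25 lies at 216 to 245 CPM in MeNQ, against 175 to 220 CPM in the MeNQ control, and at 186 to 199 CPM in NQ, against 216 to 261 CPM in the NQ control.

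Under IMX-101, hsp70 and Hsp90beta rose and CCT2 fell at 40 mg/L, which makes 2 of 35 members up and 1 down, when 3.84% of all transcripts rose and 3.68% fell. The members' median was -0.11, against -0.05 over all transcripts. Hsp90beta had 6714, 6363, 6246 and 6674 CPM, against 4941, 5652, 5677 and 5134 CPM in the control, without overlap, and rose by 0.28 ± 0.06 (adjusted p = 0.0120). CCT2 had 806, 920, 974 and 976 CPM, against 1179, 1038, 1014 and 1200 CPM, and fell by 0.27 on the log2 scale (SE 0.07, adjusted p = 0.0364). The CCT2 call was lost without 40 mg/L A or B or control A or D (-0.27 to -0.21), with only the 8 libraries compared (adjusted p = 0.159) and with the replicate letter as a block (adjusted p = 0.0946), and no left-out library ended that of Hsp90beta.

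At 20 mg/L, 1 member rose and 2 fell (2.66% and 2.55% of all transcripts). CCT2 had 906, 888, 846 and 821 CPM, which lay below all 4 controls, and fell by 0.36 (SE 0.07, adjusted p = 0.0118), a call lost with only the 8 libraries compared (-0.35, adjusted p = 0.0552). DNAJC2 had 202, 165, 185 and 130 CPM, against 265, 204, 231 and 301 CPM, and fell by 0.55 (SE 0.14, adjusted p = 0.0359). That call was lost without 20 mg/L B, C or D or control A or D (-0.60 to -0.45, adjusted p up to 0.12). It was also lost under 2 of 7 alternatives that kept all doses' libraries or only those compared (adjusted p up to 0.132). At 40 mg/L DNAJC2 had 206, 216, 254 and 214 CPM, which overlapped the control (-0.17 ± 0.14).

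At 10 mg/L, whose libraries share a run set with the control, edgeR called no member (0.989% of all transcripts called). An unadjusted p under 0.05 was reached by 4 of 35 members, against 9.97% of all transcripts. DESeq2 called hsp70 alone of the members, and 5.11% of all transcripts. Hsp90beta had 5936, 5763, 5758 and 5412 CPM there, with D among the controls, and CCT2 had 999, 1010, 1029 and 919 CPM (-0.16 ± 0.07, adjusted p = 0.455). Between 40 and 20 mg/L, which share the other run set, edgeR called no member either (0.303% of all transcripts called), and 8 of 35 members had an unadjusted p under 0.05, against 9.91% of all transcripts. DESeq2 was not run on that comparison. There DNAJC25 had 177, 182, 197 and 196 CPM at 40 mg/L, against 221, 221, 218 and 222 CPM at 20 mg/L, without overlap (-0.23 ± 0.06, adjusted p = 0.145), and Hsp90beta differed by 0.20 ± 0.06 (adjusted p = 0.268). The hsp70 and CCT2 calls at 20 and 40 mg/L therefore rest on comparisons across run sets. So do the calls of DNAJC2 at 20 mg/L and of Hsp90beta at 40 mg/L.

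The slope over the IMX-101 dose steps was positive in 3 members and negative in 1 (3.71% and 4.02% of all transcripts). The libraries at 20 and 40 mg/L came from another run set than those at 10 mg/L and the control. Dose and run set can therefore not be told apart in these slopes. On log10 dose with the control left out, which used fewer libraries, no member's slope passed. It was 1.08 ± 0.22 per step for hsp70 (adjusted p = 0.00593), 0.08 ± 0.02 for Hsp90beta, 0.47 ± 0.13 for HSPB2 (adjusted p = 0.0348) and -0.10 ± 0.03 for CCT2. HSPB2 had 1.25, 0.988, 0.802 and 1.05 CPM in the control, 1.72, 1.04, 1.52 and 2.43 CPM at 10 mg/L, 2.01, 2.89, 2.93 and 2.15 CPM at 20 mg/L and 3.97, 2.47, 2.29 and 1.84 CPM at 40 mg/L. All libraries at 20 and 40 mg/L lay above the controls, and the slope call was lost without any 1 of 9 libraries, among them each of the 4 controls (0.42 to 0.49, adjusted p up to 0.116). Of the slope calls, that of Hsp90beta was lost without 40 mg/L A or D or control D, and that of CCT2 without 40 mg/L A or control A or D.

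HSP90-alpha had 129, 97.6, 137 and 121 CPM at 40 mg/L IMX-101, against 72.7, 43.2, 56.2 and 89.4 CPM in the control, without overlap, and its 0.89 ± 0.40 did not pass (adjusted p = 0.245). At 20 mg/L it had 121, 40.8, 33.7 and 29.9 CPM, so that library A stood apart from the other 3. DNAJB1-like had 3.43, 3.45, 3.57 and 2.63 CPM at 40 mg/L, against 1.36, 1.67, 0 and 1.05 CPM, again without overlap (1.67 ± 1.17, adjusted p = 0.543). DNAJC5, a J-domain protein of synaptic vesicles, had 2.79 to 6.70 CPM, against 8.34 to 14.8 CPM, without overlap (-1.11 ± 0.69, adjusted p = 0.473). HSPB8-like, which rose in TNT, had 119 to 208 CPM at 40 mg/L, against 162 to 218 CPM in the control (-0.19 ± 0.15). HSPA13-like, TCP1 and CCT5 overlapped their controls at 40 mg/L (0.06 ± 0.27, -0.11 ± 0.12 and -0.00 ± 0.06).

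None of 25 genes tested from the wider folding list passed at 40 mg/L IMX-101 (3.84% of all transcripts rose and 3.68% fell). BAG3-like had 50.3, 36.5, 44.0 and 65.7 CPM, against 46.2, 25.3, 18 and 34.2 CPM (0.67 ± 0.29, adjusted p = 0.22). Erythroid rows summed to 1987 to 4376 CPM at this dose, against 7547 to 11180 CPM in the control, with 1 of 3 tested down. Goblet-cell rows summed to 749 to 1041 CPM, against 1575 to 1896 CPM, with 4 of 9 down. Muscle rows summed to 4554 to 5583 CPM, against 2889 to 3787 CPM, with 3 up and 2 down of 14. Liver rows summed to 8030 to 10324 CPM, against 6159 to 6697 CPM, with 2 of 6 up, and pancreatic rows to 9390 to 14379 CPM, against 10807 to 16625 CPM, with 1 of 9 down. Their part in the chaperone values was not tested.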

How the data were processed

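RNA-seq of 72 whole-body libraries was used as deposited in 134 sequencing runs of estimated counts per transcript. Per the submitters' processing notes, the authors named bcl2fastq 1.8.4 and Salmon (version not given in the sources used here) among their tools. The deposited transcripts carry protein names from a similarity search with a score, the E-value, which was at most 1.27e-31 among the members. Names were used as deposited. No sequence was used.

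From these, the runs of a library were summed (62 libraries had 2 runs and 10 had 1) and the estimated counts were rounded to whole numbers. Groups follow the sample titles. One edgeR 4.0.16 model per exposure (R 4.3.3, limma 3.58.1) used filterByExpr, TMM scaling and the quasi-likelihood F test. Benjamini-Hochberg adjustment ran over all transcripts tested, with a threshold of 0.05, and standard errors come from the log2 fold change and its F value. Slopes were fitted per dose step. MeNQ and NQ were compared in 1 joint model of both exposures. The scripts were tested on simulated counts. DESeq2 1.42.0 was an alternative, its shares being of the transcripts it gave an adjusted p, and so were other scaling, no filter, fewer libraries, run means, counts summed by protein name, replicate letters as a block and each library left out in turn. After seeing the data, fits with a term for the lane, without the TNT libraries of a single run and without the NQ runs of conflicting names were added.

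The text names hsp70, the members that passed in a comparison and, per role class at each highest dose, those of smallest adjusted p. Further members were named after their values were seen. The members and all lists were chosen with earlier results of these data known.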

Additional observations from a re-analysis of the deposited data

Results flagged for a closer look

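The hsp70 transcript was checked in each group for 1 library that lay far from the other 3. Other members were checked only in the groups of a comparison with a control in which they were called. Members named without a call were not checked, among them HSP90-alpha at 20 mg/L IMX-101. Dixon's ratio passed its 95% critical value in 5 of 52 group values. Chance alone passes about 1 in 20 where values are normally distributed, which was not checked for these CPM values. All 5 were of hsp70, in NQ and MeNQ. The other members entered through groups chosen by their calls, so hsp70 cannot be set against them here.

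NQ 750 mg/L D had 24.2 CPM of hsp70, against 1.44 to 3.81 CPM in the other 3 libraries of that dose. NQ control D had 21.7 CPM, against 2.51 to 3.04 CPM in the other 3 controls. NQ 30 mg/L C was low, at 1.29 CPM, against 3.19 to 3.28 CPM.

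MeNQ 4225 mg/L A had 141 CPM, against 2.65 to 5.43 CPM in the other 3 libraries of that dose. MeNQ 34 mg/L A had 19.1 CPM, against 2.80 to 5.54 CPM.

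DNAJC25 differed between the MeNQ and NQ responses at 36 mmol/L by 0.50 on the log2 scale in the edgeR test of the difference itself (adjusted p = 0.0192).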

How the results depend on the processing

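Under the alternatives other than leaving out a library, counts of called members stayed within 1.5 times the reported count in 152 recomputed values and moved further in 25. The 152 include comparisons with no reported call where again none was called. They therefore overstate how stable the counts were where members were called. With only the 8 libraries compared, the calls were 0 at 1.5 mg/L TNT (against 1), 2 at 2.3 mg/L (against 4), 6 at 3.4 mg/L (against 10), 0 at 3750 mg/L NQ (against 3) and 1 at 20 mg/L IMX-101 (against 3). With the sequencing lane as a term they were 0, 2 and 6 at the TNT doses, without the 2 TNT libraries of a single run 2 at 2.3 mg/L and 6 at 3.4 mg/L, and without a filter 2 at 2.3 mg/L. On log10 dose with the control left out, the slope calls were 5 in TNT (against 9) and 0 in IMX-101 (against 4). DESeq2's Wald test called 8 at 3750 mg/L NQ, 4 for the NQ slope, 2 at 4225 mg/L MeNQ, 1 at 10 mg/L IMX-101, 5 at 40 mg/L and 3 for MeNQ minus NQ at 36 mmol/L, where counts summed by protein name gave 2. The share of all transcripts that DESeq2 called is not given for 40 mg/L IMX-101 or the 36 mmol/L difference. Its higher member counts there cannot be set against a background. For the settings other than DESeq2, the replicate block and the left-out libraries below included, that share is not given either. A changed member count in them cannot be told from a change in the calls of all transcripts. Without the 3 NQ runs of conflicting names the NQ slope had 1 call. The cause was not tested, and some of these settings also used fewer samples.

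Libraries that share a replicate letter did not deviate together over all transcripts, since no same-letter correlation passed 0.1. That correlation runs over all transcripts, so it cannot exclude a letter effect on a single transcript such as hsp70. With the letter as a replicate block, calls were 0 at 1.5 mg/L TNT, 2 at 2.3 mg/L, 7 at 3.4 mg/L, 4 at 3750 mg/L NQ, 1 at 20 mg/L IMX-101, 2 at 40 mg/L and 2 for the IMX-101 slope, and hsp70 at 750 mg/L NQ was -0.12.

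Leaving out 1 library at a time gave 1 to 1 calls at 1.5 mg/L TNT, 2 to 4 at 2.3 mg/L, 6 to 9 at 3.4 mg/L, 7 to 10 for the TNT slope, 1 to 4 at 3750 mg/L NQ, 0 to 1 for the NQ slope, 0 to 1 at 10 mg/L IMX-101, 1 to 3 at 20 mg/L, 2 to 4 at 40 mg/L, 1 to 4 for the IMX-101 slope and 0 to 2 for MeNQ minus NQ at 36 mmol/L. The NQ slope had 1 call without NQ 30 mg/L C or NQ control A.

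The sign of hsp70 turned only where it was not called. At 150 mg/L NQ it ran between -1.51 and 0.63 over the left-out libraries (0.63 without NQ control D), against -0.79. At 750 mg/L NQ, against 0.05, it was -0.19 with the lane as a term, -1.68 without 750 mg/L D, and -0.23, -0.22 and -0.25 without control A, B and C. At 4225 mg/L MeNQ, against 1.95, it was -0.0923 with the lane and -1.31 without library A.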

Other observations

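A pattern between libraries is given as values. It was noticed after the values were seen and was not tested. In MeNQ 4225 mg/L A, where hsp70 had 141 CPM, several constitutive chaperones lay below the other 3 libraries of the dose. CCT5 had 1069 CPM, against 1497 to 1526 CPM in those 3, TCP1 587 CPM, against 800 to 888 CPM, CCT2 686 CPM, against 878 to 915 CPM, and the mitochondrial HSPA9 318 CPM, against 470 to 517 CPM. These members were picked by eye, and DNAJC25 was not lowest in that library. The share of members, or of all transcripts, lowest there was not counted. MeNQ 4225 mg/L A was also the only library of its dose on sequencing lane L005, and no MeNQ control was on that lane. The part of the lane in this pattern was not tested. NQ control D, also high in hsp70 within its group, went the other way, with the highest TCP1 and CCT5 of the NQ controls.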
